A study of Mus musculus with 15 samples.

Results

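The CC chemokine genes Ccl2, Ccl3, Ccl4, Ccl5, Ccl7, Ccl8, Ccl11, Ccl20, Ccl25 and Ccl28 were followed through 15 RNA-seq libraries of mouse colon. These 10 were chosen by name, found by Ensembl identifier, and are 10 of the 55335 genes measured. All mice received dextran sulfate sodium (DSS), a sulfated polysaccharide that injures the colonic epithelium and brings on colitis. In the DSS_ICB_Fp group (n = 5 mice) DSS was combined with ICB, the usual short form of immune checkpoint blockade, and with gavage of Faecalibacterium prausnitzii, a butyrate-producing gut bacterium. The DSS_ICB group (n = 5) received DSS and ICB, and the DSS group (n = 5) received DSS. The series asks, by its title, whether the bacterium lessens the toxicity of immunotherapy. The labels name neither the antibodies nor a control gavage, and they give no strain, sex, age, time of sampling or cage. No DSS-free mouse is among these libraries, so every level below is a level in DSS-treated colon.

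CC chemokines are small secreted proteins that draw leukocytes by binding G protein-coupled receptors of the CCR family, and atypical receptors such as Ackr1 and Ackr2 bind or clear them without that response. Ccl2, Ccl7 and Ccl8 attract monocytes, the first pair mainly through Ccr2. Ccl3, Ccl4 and Ccl5 attract myeloid and T cells, Ccl3 and Ccl5 in part through Ccr1, and Ccl11 (eotaxin) attracts eosinophils through Ccr3. Ccl20 is made by the epithelium over lymphoid follicles and attracts Ccr6-bearing B cells, T cells and dendritic cells. Ccl25 is the small-intestinal ligand of Ccr9, and Ccl28 is a mucosal epithelial chemokine that attracts Ccr10-bearing IgA plasma cells.

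Levels are in FPKM, which divides a gene's fragments by its length and by the depth of the library. The steps between low values put the depth at about 15.2 to 24.8 M fragments (M for 1e6) per library, an estimate since the files hold no counts. A library held 13243 to 14336 genes at 1 FPKM or more. Mice 3 and 5 of the DSS_ICB group stood apart, with median rank correlations to the other libraries of 0.725 and 0.864, against 0.922 to 0.950 in the other 13. DSS_ICB mouse 3 had little epithelial and much muscle RNA, with 83.0 FPKM of Epcam and 1288 FPKM of Myh11, and in the other 14 mice Epcam was at 472 to 660.5 FPKM and Myh11 at 71.3 to 435 FPKM. Differences that involve DSS_ICB are therefore also given without both mice. The colon label was checked with 10 colonocyte markers (Car1, Slc26a3, Aqp8 and 7 others), which summed to 3445 to 4655 FPKM in DSS_ICB_Fp mice, 447 to 3854 FPKM in DSS_ICB mice and 3093 to 4269 FPKM in DSS mice. The 8 small-intestinal markers (Fabp2, Fabp6, Apoa4 and 5 others) summed to 53.3 to 115 FPKM, 2.12 to 52.0 FPKM and 49.7 to 81.2 FPKM in the same groups, 5 of them were under 1 FPKM in every library, and none of the 3 tested passed in any comparison. In such bulk tissue, fewer cells of a type and less RNA per cell cannot be told apart.

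Averaged over the 15 mice, Ccl8 (43.1 FPKM) and Ccl28 (34.2 FPKM) were the most abundant of the 10 genes per unit length. Ccl11 (9.69 FPKM), Ccl3 (8.01), Ccl4 (6.39), Ccl7 (5.06), Ccl2 (3.71), Ccl5 (2.96), Ccl20 (1.96) and Ccl25 (0.718) followed. Over the 15 mice the ranges of all neighbours in that order overlapped, and the places of Ccl3 and Ccl4 rest on DSS_ICB mice 3 and 5. Ccl28 or Ccl8 was the highest of the 10 in 14 mice, and in DSS_ICB mouse 3 it was Ccl3. The 10 genes together summed to 59.0 to 123 FPKM in DSS_ICB_Fp mice, 86.9 to 303 FPKM in DSS_ICB mice and 76.5 to 114 FPKM in DSS mice. In DSS_ICB mouse 5, with the highest sum, Ccl8, Ccl3 and Ccl4 made up 36.0%, 20.9% and 19.2% of it. Ccl28 made up 34.2% to 69.3% of the sum in DSS_ICB_Fp mice, 0.362% to 42.4% in DSS_ICB mice and 23.2% to 52.6% in DSS mice.

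**Figure D1:**
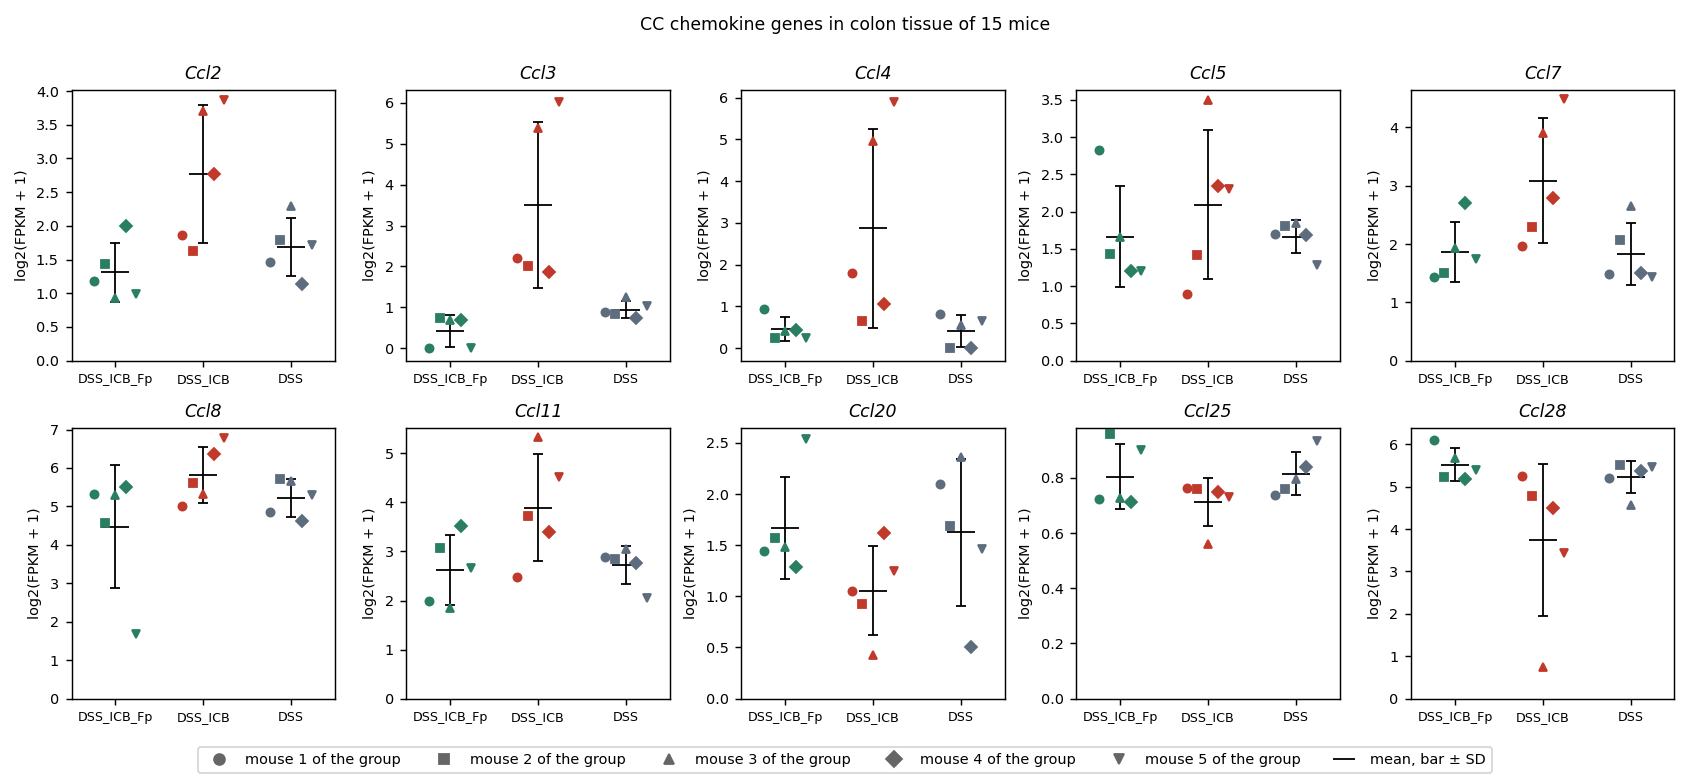
Level of each of the 10 CC chemokine genes in each mouse, as log2(FPKM + 1), with 1 panel per gene and the groups DSS_ICB_Fp, DSS_ICB and DSS from left to right; points are mice (n = 5 per group) and bars are the mean ± SD. Ccl3 lies between 2.63 and 63.3 FPKM in the 5 DSS_ICB mice, above all 10 other mice, and Ccl28 is lowest in DSS_ICB mice 3 and 5.

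Of the 10 genes, 8 reached 1 FPKM in at least 5 libraries and were tested among 14385 genes with limma on log2(FPKM + 1). Ccl4 reached it in 4 libraries, all DSS_ICB, and Ccl25 in none, so their differences come from the same fit without the filter. Ccl3 reached it in the 5 DSS_ICB mice, in 2 DSS mice and in no DSS_ICB_Fp mouse, and so it entered the test mainly through the group where it was high. None of the 8 tested genes passed an adjusted p of 0.05 in any of the 3 comparisons, where 0.132% of all tested genes did for DSS_ICB_Fp against DSS_ICB, 0.0209% for DSS_ICB against DSS and 0.0% for DSS_ICB_Fp against DSS.

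For DSS_ICB against DSS, 6 of the 8 log2 differences were above 0, with a median of 0.84, against 0.02 over all tested genes. At an unadjusted p of 0.05 limma had 4 higher (Ccl2, Ccl3, Ccl7 and Ccl11) and 1 lower (Ccl28), where 7.08% of all tested genes were higher, 4.22% lower and 11.3% either. Without DSS_ICB mice 3 and 5 the median was 0.42, 5 of the 8 were above 0, and Ccl3 alone was higher and none lower at that p, beside 6.42% and 1.29% of all tested genes. For DSS_ICB_Fp against DSS_ICB, 6 of the 8 were below 0, with a median of -1.25 against -0.04 over all tested genes. At an unadjusted p of 0.05 limma had 5 lower (Ccl2, Ccl3, Ccl7, Ccl8 and Ccl11) and 1 higher (Ccl28), where 12.4% of all tested genes were lower, 9.34% higher and 21.8% either. Without those 2 mice the median was -0.53, 5 of the 8 were below 0, and 2 were lower (Ccl2 and Ccl3) and 1 higher (Ccl28) at that p, beside 14.3% and 3.65% of all tested genes. Ccl7, Ccl8 and Ccl11 were then no longer among them. For DSS_ICB_Fp against DSS, 4 were above and 4 below 0, with a median of -0.05 against -0.01 over all tested genes, and none had an unadjusted p under 0.05 in limma, beside 1.41% of all tested genes. Leaving out DSS_ICB mice 3 and 5 changes only the shared spread here. Ccl3 alone was then lower at that p, beside 285 higher and 431 lower of the 14385 tested genes. The 3 comparisons share groups: DSS_ICB stands in the first and second, so a high or low DSS_ICB mouse moves both in opposite directions.

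**Figure D2:**
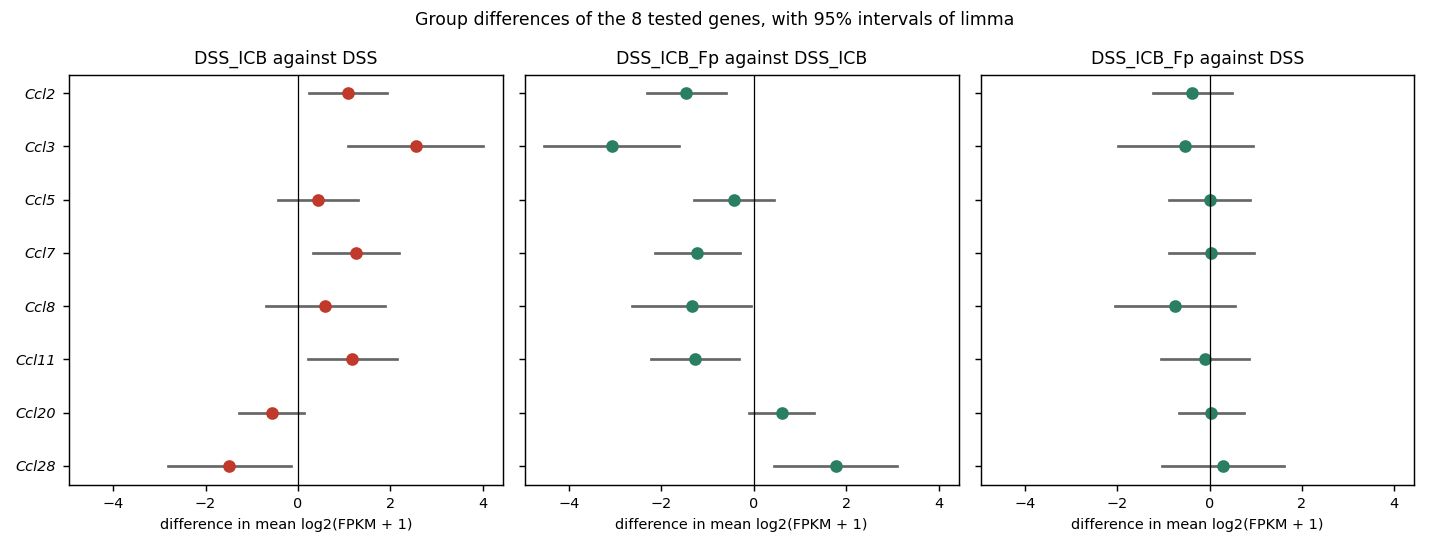
Differences in log2(FPKM + 1) from the limma fit of all 15 libraries, with 95% confidence intervals, for the 8 tested genes in the 3 comparisons; a positive value is higher in the first-named group. For DSS_ICB_Fp against DSS_ICB the intervals of Ccl2, Ccl3, Ccl7, Ccl8 and Ccl11 lie below 0 and that of Ccl28 above 0, and none of the 8 passes after adjustment over all tested genes.

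Of the tested genes, 4 matched an entry in the table of RefSeq start windows used here (GRCm38.p6; 250 bases before to 50 after the start), and these are shown since Ccl3 and Ccl8 on the one hand and Ccl28 and Ccl20 on the other had differences of opposite sign. The windows are chr11:83649329-83649628 for Ccl3 (minus strand), chr11:82114935-82115234 for Ccl8, chr1:83116516-83116815 for Ccl20 and chr13:119623569-119623868 for Ccl28 (plus strand). Capitals mark the motif matches, read 5′ to 3′ on the gene's strand.
Ccl3: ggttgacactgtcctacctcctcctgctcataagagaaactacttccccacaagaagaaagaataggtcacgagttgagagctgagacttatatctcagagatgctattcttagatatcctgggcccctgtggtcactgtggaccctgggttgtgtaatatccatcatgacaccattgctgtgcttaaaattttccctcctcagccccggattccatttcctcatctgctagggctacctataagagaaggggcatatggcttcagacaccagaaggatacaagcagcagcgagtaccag
Ccl8: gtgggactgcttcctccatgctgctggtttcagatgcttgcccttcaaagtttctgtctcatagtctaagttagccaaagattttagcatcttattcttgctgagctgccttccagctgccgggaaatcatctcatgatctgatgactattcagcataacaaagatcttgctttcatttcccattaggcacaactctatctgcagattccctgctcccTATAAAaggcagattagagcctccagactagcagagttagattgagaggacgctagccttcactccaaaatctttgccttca
Ccl20: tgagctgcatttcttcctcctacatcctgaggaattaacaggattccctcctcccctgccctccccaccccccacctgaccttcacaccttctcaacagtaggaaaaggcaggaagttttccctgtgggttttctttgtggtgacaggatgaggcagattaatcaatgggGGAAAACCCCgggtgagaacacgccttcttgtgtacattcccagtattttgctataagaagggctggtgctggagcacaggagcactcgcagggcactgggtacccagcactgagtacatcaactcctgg
Ccl28: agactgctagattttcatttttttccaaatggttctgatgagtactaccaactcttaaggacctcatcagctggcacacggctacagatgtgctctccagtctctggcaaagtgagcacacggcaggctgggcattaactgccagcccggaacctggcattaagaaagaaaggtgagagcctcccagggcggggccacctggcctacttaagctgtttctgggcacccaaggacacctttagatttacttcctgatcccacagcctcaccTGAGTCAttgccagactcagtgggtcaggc
Each of 4 motifs was searched on both strands, and no match overlapped another. An NF-kB match lay 80 bases before the start of Ccl20 on the opposite strand, and 8.46% of 32851 mouse windows of this length hold one. TATAAA, the letters searched for the TATA box, lay 32 bases before the start of Ccl8 (13.6% of windows). TGANTCA, the AP-1 motif, lay 20 bases after the start of Ccl28 (7.81% of windows). The Ccl3 window held none of these, and none of the 4 held TTCNNNGAA, the STAT motif (8.30% of windows). Only exact matches were sought, so close variants of TATAAA are not marked in any window. A match describes the letters and shows no binding.

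Of the monocyte attractants, Ccl2 (chr11:82035571-82037453, plus strand, GRCm38; Ensembl ENSMUSG00000035385) encodes MCP-1, the main ligand of Ccr2. In mice 1 to 5 of each group, Ccl2 was at 1.26, 1.70, 0.910, 3.002 and 0.990 FPKM in DSS_ICB_Fp, at 2.64, 2.07, 12.1, 5.85 and 13.6 FPKM in DSS_ICB, and at 1.77, 2.46, 3.92, 1.19 and 2.27 FPKM in DSS. DSS_ICB mice 3, 4 and 5 lay above every mouse of the other groups, and mice 1 and 2 lay among them. The means were 1.57 ± 0.856 FPKM in DSS_ICB_Fp and 7.24 ± 5.32 FPKM in DSS_ICB (SD, n = 5 each), a log2 difference of -1.46 ± 0.40 (SE) with an adjusted p of 0.0906 in limma. Against the 2.32 ± 1.02 FPKM of DSS, the DSS_ICB difference was 1.09 ± 0.40 (adjusted p 0.430). Without DSS_ICB mice 3 and 5 these became -0.78 ± 0.31 (adjusted p 0.218) and 0.41 ± 0.31 (adjusted p 0.696). Without DSS_ICB mouse 1 or mouse 2 alone, 2 of the lower mice of that group, Ccl2 passed for DSS_ICB_Fp against DSS_ICB (-1.68 and -1.74, adjusted p 0.0409 and 0.0468 in limma).

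Ccl7 (chr11:82045712-82047525, plus strand; ENSMUSG00000035373), whose product MCP-3 also binds Ccr2, starts 8.258 kb beyond the end of Ccl2. Its levels in mice 1 to 5 were 1.69, 1.84, 2.83, 5.51 and 2.34 FPKM in DSS_ICB_Fp, 2.90, 3.90, 13.9, 5.89 and 21.3 FPKM in DSS_ICB, and 1.79, 3.20, 5.26, 1.83 and 1.69 FPKM in DSS. As with Ccl2, DSS_ICB mice 3, 4 and 5 were the highest 3 of all 15, and the groups overlapped below them. The log2 difference was -1.22 ± 0.43 (SE) for DSS_ICB_Fp against DSS_ICB (adjusted p 0.140) and 1.26 ± 0.43 for DSS_ICB against DSS (adjusted p 0.418) in limma. Without the 2 mice it was -0.48 ± 0.32 and 0.52 ± 0.32. Over the 15 libraries the Pearson correlation of Ccl2 and Ccl7 in log2(FPKM + 1) was 0.927, and 0.755 without those 2 mice, given as a description of neighbours measured in the same libraries.

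Ccl8 (chr11:82115185-82116799, plus strand; ENSMUSG00000009185), which encodes MCP-2, was the most abundant of the monocyte attractants in every mouse but DSS_ICB_Fp mouse 5. Across mice 1 to 5 it was at 39.0, 22.7, 38.1, 44.7 and 2.21 FPKM in DSS_ICB_Fp, 31.2, 47.8, 39.2, 81.6 and 109 FPKM in DSS_ICB, and 27.8, 51.6, 49.6, 23.4 and 38.1 FPKM in DSS. Here DSS_ICB mice 4 and 5 were the highest, DSS_ICB mouse 3 lay in the middle, and 1 DSS_ICB_Fp mouse stood far below all others. The means were 29.4 ± 17.2 FPKM in DSS_ICB_Fp and 61.8 ± 32.7 FPKM in DSS_ICB (SD, n = 5 each), a log2 difference of -1.34 ± 0.61 (SE; adjusted p 0.215 in limma). Without DSS_ICB_Fp mouse 5 it was -0.65, and without DSS_ICB mice 3 and 5 it was -1.19 ± 0.75. Against the 38.1 ± 12.6 FPKM of DSS, the DSS_ICB difference was 0.59 ± 0.61 (adjusted p 0.688), and 0.44 ± 0.75 without DSS_ICB mice 3 and 5.

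The 12 monocyte and macrophage markers (Cd68, Csf1r, Adgre1 and 9 others) are given beside these 3 genes. They summed to 336 to 405 FPKM in DSS_ICB_Fp mice, 313 to 1127 FPKM in DSS_ICB mice and 391.9 to 598 FPKM in DSS mice, none was at 0 throughout, and none of the 12 passed in any comparison. For DSS_ICB_Fp against DSS_ICB 11 of the 12 were below 0 (median -0.49, and -0.29 without DSS_ICB mice 3 and 5). With all 15 libraries 3 of them had an unadjusted p under 0.05 in limma, beside 12.4% of all tested genes lower. DSS_ICB mouse 3, with the lowest sum, had the second-highest Ccl2 and Ccl7. Ccl8 as a percentage of the macrophage complement gene C1qa was 6.95% to 110% in DSS_ICB_Fp mice, 52.1% to 160% in DSS_ICB mice and 49.2% to 96.9% in DSS mice, with overlap among all 3 groups. The part of the marker levels in the chemokine differences was not tested. Ccr2, the receptor of Ccl2 and Ccl7, averaged 1.87 ± 1.03 FPKM in DSS_ICB_Fp, 2.97 ± 1.85 FPKM in DSS_ICB and 2.31 ± 0.445 FPKM in DSS (SD, n = 5 each). In DSS_ICB mouse 3 it was at 0.862 FPKM, the lowest of the 15.

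Ccl3 (chr11:83647844-83649355, minus strand; ENSMUSG00000000982), which encodes MIP-1 alpha, was the single tested gene of the 10 whose DSS_ICB mice did not overlap either other group. Its levels in mice 1 to 5 were 0, 0.674, 0.608, 0.607 and 0 FPKM in DSS_ICB_Fp, 3.59, 3.02, 40.9, 2.63 and 63.3 FPKM in DSS_ICB, and 0.838, 0.789, 1.39, 0.662 and 1.04 FPKM in DSS. All 5 DSS_ICB mice were above all other mice, DSS_ICB mice 3 and 5 were far above the rest of their group, and Ccl3 was listed at 0 in 2 DSS_ICB_Fp mice. Such separation occurred in 2.46% of tested genes with DSS_ICB_Fp lower than DSS_ICB, and in 1.21% with DSS_ICB higher than DSS. The log2 difference was -3.07 ± 0.69 (SE) for DSS_ICB_Fp against DSS_ICB (adjusted p 0.0712) and 2.55 ± 0.69 for DSS_ICB against DSS (adjusted p 0.379) in limma. DSS_ICB_Fp against DSS gave -0.52, with a 95% interval of -1.99 to 0.94, and of -0.90 to -0.15 without DSS_ICB mice 3 and 5.

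Without DSS_ICB mice 3 and 5 the log2 difference for DSS_ICB_Fp against DSS_ICB was smaller, -1.60 ± 0.20 (SE). It passed with an adjusted p of 0.00592 in limma. These 2 mice had the highest Ccl3 of their group, so leaving them out also lowers the spread that p is set against. That pass is therefore no independent result, and the tested genes were still those chosen with all 15 libraries. For DSS_ICB against DSS the log2 difference without those mice was 1.08 ± 0.20 and did not pass (adjusted p 0.199). For DSS_ICB_Fp against DSS_ICB, Ccl3 also passed without any 1 of DSS_ICB_Fp mouse 4 and DSS_ICB mice 1, 2 and 4 (adjusted p 0.0319 to 0.0436). With only the DSS_ICB_Fp and DSS_ICB libraries in the fit, the adjusted p of that comparison was 0.216.

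Ccl4 (chr11:83662584-83664683, plus strand; ENSMUSG00000018930), which encodes MIP-1 beta, lies 13.228 kb from Ccl3. In mice 1 to 5 it was at 0.920, 0.177, 0.322, 0.363 and 0.180 FPKM in DSS_ICB_Fp, 2.48, 0.574, 29.9, 1.09 and 58.0 FPKM in DSS_ICB, and 0.764, 0, 0.468, 0 and 0.577 FPKM in DSS. DSS_ICB mice 3 and 5 again stood far above the rest, and DSS_ICB mouse 2 lay within the range of the other groups. In the fit without the filter the log2 difference was -2.42 ± 0.82 (SE) for DSS_ICB_Fp against DSS_ICB (adjusted p 0.244) and 2.46 ± 0.82 for DSS_ICB against DSS (adjusted p 0.619) in limma. Without DSS_ICB mice 3 and 5 it was -0.72 ± 0.27 (adjusted p 0.381) and 0.77 ± 0.27 (adjusted p 0.7496).

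Markers of neutrophils and macrophages are given beside Ccl3 and Ccl4. The 9 neutrophil markers (S100a8, S100a9, Csf3r and 6 others) summed to 111 to 220 FPKM in DSS_ICB_Fp mice, 334 to 2122 FPKM in DSS_ICB mice and 119 to 249 FPKM in DSS mice, highest in the same DSS_ICB mice 3 and 5. Of the 9, 5 fell in DSS_ICB_Fp against DSS_ICB, S100a8, S100a9, Csf3r, Retnlg and Clec4d, with limma adjusted p from 0.00610 to 0.0404, and all 5 also passed without DSS_ICB mice 3 and 5 (0.00378 to 0.0294). Over all 14385 tested genes 18 passed as lower in that comparison. Ly6g of the same list did not pass, and its groups overlapped (-0.57 ± 0.36, adjusted p 0.354 in limma). Without DSS_ICB mice 3 and 5 it gave -0.54 ± 0.23 (adjusted p 0.248). S100a8 and S100a9 passed with each library left out in turn, and Csf3r, Retnlg and Clec4d did not. Within the macrophage list, Ccl3 as a percentage of Cd68, a lysosomal protein of macrophages, was 0% to 5.55% in DSS_ICB_Fp mice, 8.96% to 302% in DSS_ICB mice and 3.76% to 6.19% in DSS mice. The DSS_ICB mice lay above all others in this ratio, whose numerator, Ccl3, already separated them. The part of macrophage or neutrophil RNA in the Ccl3 and Ccl4 levels was not tested. Ccr1, a receptor of Ccl3, averaged 3.06 ± 0.466 FPKM in DSS_ICB_Fp, 9.25 ± 7.52 FPKM in DSS_ICB and 4.41 ± 1.01 FPKM in DSS (SD, n = 5 each), with 12.6 and 20.9 FPKM in DSS_ICB mice 3 and 5. Its difference for DSS_ICB_Fp against DSS_ICB was -1.04 ± 0.36 on the log2 scale (SE; adjusted p 0.137 in limma), and -0.34 ± 0.19 without those 2 mice.

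**Figure D3:**
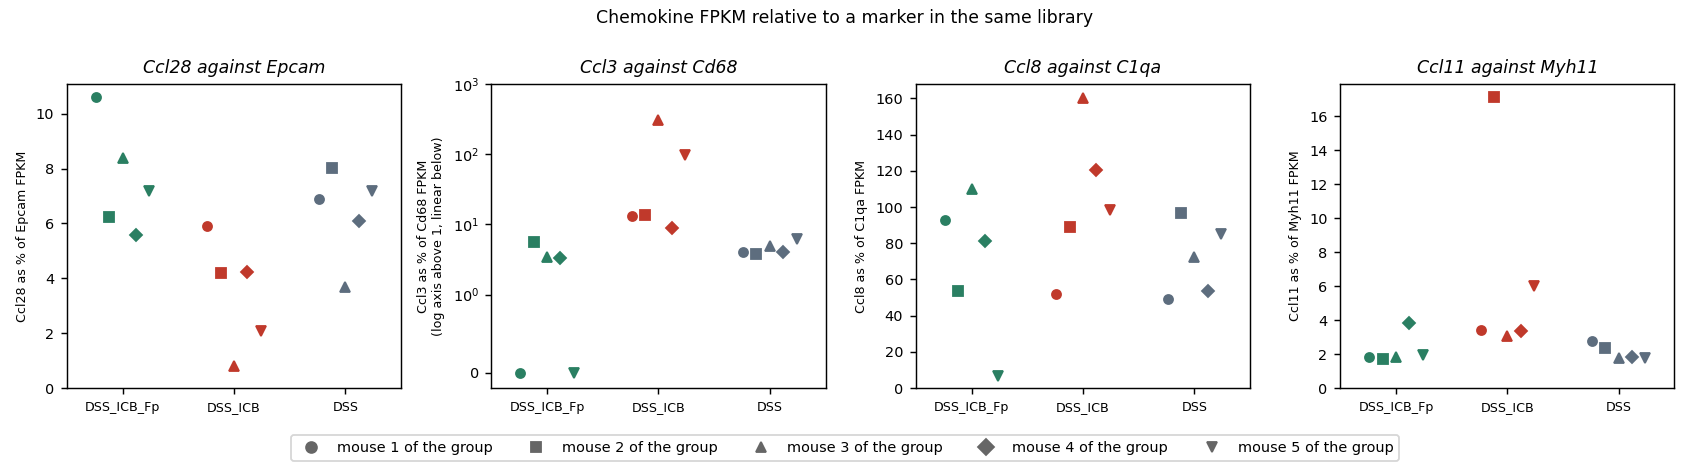
Ccl28, Ccl3, Ccl8 and Ccl11 as a percentage of the FPKM of a marker gene in the same library, by mouse (marker shapes are mice 1 to 5) for DSS_ICB_Fp, DSS_ICB and DSS from left to right; the Ccl3 axis is logarithmic above 1 and linear below. Ccl3 relative to Cd68 is at 8.96% to 302% in DSS_ICB mice and at most 6.19% in the others, and Ccl28 relative to Epcam is lowest, 0.816%, in DSS_ICB mouse 3.

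Ccl5 (chr11:83525778-83530518, minus strand; ENSMUSG00000035042), RANTES, is a product of activated T and NK cells. Its levels in mice 1 to 5 were 6.10, 1.70, 2.15, 1.30 and 1.31 FPKM in DSS_ICB_Fp, 0.865, 1.68, 10.3, 4.07 and 3.95 FPKM in DSS_ICB, and 2.24, 2.504, 2.58, 2.21 and 1.44 FPKM in DSS. The 3 groups overlapped, with a single high mouse in DSS_ICB_Fp. DSS_ICB mice 3, 4 and 5 lay above every DSS mouse, and DSS_ICB mouse 1 lay below every DSS mouse. The log2 difference was -0.43 ± 0.41 (SE) for DSS_ICB_Fp against DSS_ICB (adjusted p 0.559) and 0.43 ± 0.41 for DSS_ICB against DSS (adjusted p 0.664) in limma, and without DSS_ICB mice 3 and 5 both changed sign, to 0.11 and -0.11. The 9 T cell markers (Cd3e, Cd3d, Cd3g and 6 others, of which 6 were tested and none passed) summed to 7.24 to 19.6 FPKM in DSS_ICB_Fp mice, 13.5 to 39.0 FPKM in DSS_ICB mice and 11.4 to 24.0 FPKM in DSS mice. The 6 tested were all below 0 for DSS_ICB_Fp against DSS_ICB (median -0.68, against -0.04 over all tested genes). Their median was -0.47 without DSS_ICB mice 3 and 5. DSS_ICB_Fp mouse 1, with the high Ccl5, had the highest T cell sum of its group.

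Ccl11 (chr11:82057823-82062955, plus strand; ENSMUSG00000020676) lies 10.297 kb beyond Ccl7, between the monocyte attractants. Mouse by mouse, 1 to 5, it was at 2.95, 7.45, 2.62, 10.4 and 5.37 FPKM in DSS_ICB_Fp, 4.61, 12.2, 39.5, 9.48 and 21.8 FPKM in DSS_ICB, and 6.36, 6.18, 7.29, 5.80 and 3.15 FPKM in DSS. In DSS_ICB, 4 mice were above every DSS mouse, and mouse 1 lay among them. The log2 difference was -1.27 ± 0.45 (SE) for DSS_ICB_Fp against DSS_ICB (adjusted p 0.140) and 1.17 ± 0.45 for DSS_ICB against DSS (adjusted p 0.430) in limma. Without DSS_ICB mice 3 and 5 it was -0.58 ± 0.38 and 0.48 ± 0.38, and without DSS_ICB mouse 1, the lowest of that group, DSS_ICB_Fp against DSS_ICB passed (-1.62 ± 0.40, adjusted p 0.0452).

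Ccl11 was present with very little RNA of its target cell. Of the 8 eosinophil markers (Siglecf, Epx, Prg2 and 5 others), Epx, the eosinophil peroxidase, was listed at 0 in all 15 libraries, and 4 of the 8 never reached 1 FPKM. Their sum was 1.51 to 2.96 FPKM in DSS_ICB_Fp mice, 1.81 to 11.03 FPKM in DSS_ICB mice and 2.37 to 4.79 FPKM in DSS mice, and the 1 tested marker did not pass. Ccr3 was under 1 FPKM in 14 libraries and at 2.07 FPKM in DSS_ICB mouse 5. Markers of stromal cells, which make eotaxin, are therefore given as well, and those of fibroblasts and endothelium were highest in DSS_ICB mice 3 and 5. The 7 fibroblast markers (Col1a1, Col3a1, Pdgfra and 4 others) summed to 232 to 434 FPKM in DSS_ICB_Fp mice, 414 to 769.5 FPKM in DSS_ICB mice and 294 to 427 FPKM in DSS mice. The 7 endothelial markers (Pecam1, Cdh5, Kdr and 4 others) summed to 27.1 to 43.6 FPKM, 46.7 to 107 FPKM and 23.3 to 52.6 FPKM, and the 7 smooth muscle markers (Myh11, Acta2, Des and 4 others) to 1406 to 4066 FPKM, 1078 to 14806 FPKM and 1496 to 4711 FPKM, in the same groups. None of these 21 genes passed in any comparison. For DSS_ICB_Fp against DSS_ICB all 7 fibroblast markers were below 0 (median -0.96), and so were all 7 endothelial markers (median -0.82). In each list 6 had an unadjusted p under 0.05 in limma, beside 12.4% of all tested genes lower. Groups did not overlap in 3 and 4 of them, beside 2.46%. Without DSS_ICB mice 3 and 5 the medians were -0.60 and -0.50. The smooth muscle median was -0.32, and 0.49 without those 2 mice. The part of stromal RNA in the Ccl11 level was not tested. Ccl11 as a percentage of the muscle myosin gene Myh11 was 1.71% to 3.81% in DSS_ICB_Fp mice, 3.07% to 17.1% in DSS_ICB mice and 1.75% to 2.78% in DSS mice. The DSS_ICB mice lay above all 5 DSS mice in that ratio and overlapped the DSS_ICB_Fp mice. As a percentage of the fibroblast collagen gene Col3a1, Ccl11 was 3.09% to 8.76% in DSS_ICB_Fp mice, 2.35% to 15.1% in DSS_ICB mice and 2.75% to 6.35% in DSS mice. By that marker the 3 groups overlapped, and the highest and the lowest of the 15 mice were both DSS_ICB mice, 3 and 1.

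Among the epithelial chemokines, Ccl28 (chr13:119623819-119654359, plus strand; ENSMUSG00000074715) had differences of the opposite sign to the inflammatory genes. Its levels in mice 1 to 5 were 68.2, 36.3, 49.96, 35.3 and 40.9 FPKM in DSS_ICB_Fp, 36.8, 26.7, 0.678, 21.4 and 9.86 FPKM in DSS_ICB, and 36.1, 44.8, 22.8, 40.2 and 43.1 FPKM in DSS. In DSS_ICB, 4 mice were below every DSS_ICB_Fp mouse, and DSS_ICB mice 3, 4 and 5 were below every DSS mouse. The means were 46.1 ± 13.6 FPKM in DSS_ICB_Fp and 19.1 ± 14.1 FPKM in DSS_ICB (SD, n = 5 each), a log2 difference of 1.77 ± 0.62 (SE; adjusted p 0.137 in limma). Against the 37.4 ± 8.81 FPKM of DSS, the DSS_ICB difference was -1.49 ± 0.62 (adjusted p 0.430).

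Most of the size of the Ccl28 difference lay in DSS_ICB mice 3 and 5: without both it was 0.68 ± 0.25 (SE) for DSS_ICB_Fp against DSS_ICB (adjusted p 0.206) and -0.39 ± 0.25 for DSS_ICB against DSS (adjusted p 0.665) in limma. The colonocyte marker sum was 447 FPKM in DSS_ICB mouse 3 and 3053 FPKM in DSS_ICB mouse 5, and none of the 10 colonocyte markers passed in any comparison. All 10 were below 0 for DSS_ICB against DSS (median -0.70), 2 of them at an unadjusted p under 0.05 in limma, beside 4.22% of all tested genes. For DSS_ICB_Fp against DSS_ICB 9 of the 10 were above 0 (median 0.69), 3 of them at that p, beside 9.34%. Without DSS_ICB mice 3 and 5 these medians were -0.16 and 0.16. As a percentage of the epithelial adhesion gene Epcam, Ccl28 was 5.58% to 10.6% in DSS_ICB_Fp mice, 0.816% to 5.89% in DSS_ICB mice and 3.67% to 8.03% in DSS mice. DSS_ICB mice 3 and 5 had the lowest 2 ratios, 0.816% and 2.09%. The part of epithelial RNA in the Ccl28 difference was not tested. Over the 15 libraries Ccl28 and Ccl11 had a Pearson correlation of -0.90, and -0.77 without those 2 mice, as a description.

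The receptor of Ccl28, Ccr10, averaged 1.004 ± 0.668 FPKM in DSS_ICB_Fp, 0.490 ± 0.114 FPKM in DSS_ICB and 0.636 ± 0.143 FPKM in DSS (SD, n = 5 each). It was under the filter. In the fit without the filter its log2 difference for DSS_ICB_Fp against DSS_ICB was 0.37 ± 0.17 (SE, adjusted p 0.352 in limma). Without DSS_ICB mice 3 and 5 that difference was 0.39 ± 0.20. The highest Ccr10, 2.14 FPKM, was in DSS_ICB_Fp mouse 5. That mouse also had the highest sum of the 7 plasma cell and IgA markers (Jchain, Igha, Mzb1 and 4 others), 764 FPKM, where the sums were 133 to 764 FPKM in DSS_ICB_Fp mice, 66.7 to 277 FPKM in DSS_ICB mice and 112 to 286 FPKM in DSS mice. None of the 6 tested plasma cell markers passed in any comparison.

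Ccl20 (chr1:83116766-83119167, plus strand; ENSMUSG00000026166) was low. Its levels in mice 1 to 5 were 1.72, 1.96, 1.80, 1.45 and 4.81 FPKM in DSS_ICB_Fp, 1.08, 0.900, 0.346, 2.06 and 1.37 FPKM in DSS_ICB, and 3.29, 2.22, 4.16, 0.417 and 1.75 FPKM in DSS. The groups overlapped, with 4 of 5 DSS_ICB mice below all DSS_ICB_Fp mice. The log2 difference was 0.61 ± 0.33 (SE) for DSS_ICB_Fp against DSS_ICB (adjusted p 0.290) and -0.57 ± 0.33 for DSS_ICB against DSS (adjusted p 0.485) in limma, and 0.47 ± 0.37 and -0.43 ± 0.37 without DSS_ICB mice 3 and 5. Its receptor Ccr6 was at 0.128, 0.0763, 0.141, 0.0979 and 1.27 FPKM in DSS_ICB_Fp mice, at 0.629, 0.368, 0.231, 1.28 and 3.03 FPKM in DSS_ICB mice, and at 1.77, 2.46, 0.650, 0.526 and 0.0542 FPKM in DSS mice. DSS_ICB_Fp mouse 5, with the most Ccl20, was the only mouse of its group with Ccr6 at 1 FPKM or more.

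Lymphoid follicle genes are given beside Ccl20 and Ccr6. Cr2, the complement receptor of B cells and follicular dendritic cells, was at 0.0219, 0.0364, 0.793, 0.0316 and 3.48 FPKM in DSS_ICB_Fp mice, at 0.546, 0.493, 1.15, 2.86 and 3.87 FPKM in DSS_ICB mice, and at 5.25, 2.48, 3.28, 0.684 and 0.0636 FPKM in DSS mice. The 7 lymph node and follicle markers (Cr2, Cxcl13, Cxcr5 and 4 others) summed to 6.37 to 91.4 FPKM in DSS_ICB_Fp mice, 22.3 to 198 FPKM in DSS_ICB mice and 8.33 to 121 FPKM in DSS mice. Within each treatment, then, some colon pieces held far more follicle RNA than others, and none of the 7 passed in any comparison. For DSS_ICB_Fp against DSS_ICB all 7 were below 0 (median -1.61), 5 at an unadjusted p under 0.05 in limma, beside 12.4% of all tested genes lower. Without DSS_ICB mice 3 and 5 the median was -1.01, and 0 had such a p, beside 14.3%. For DSS_ICB_Fp against DSS all 7 were also below 0 (median -1.11), 1 at that p, beside 0.82%. The part of follicle RNA in the Ccl20 and Ccr6 values was not tested.

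**Figure D4:**
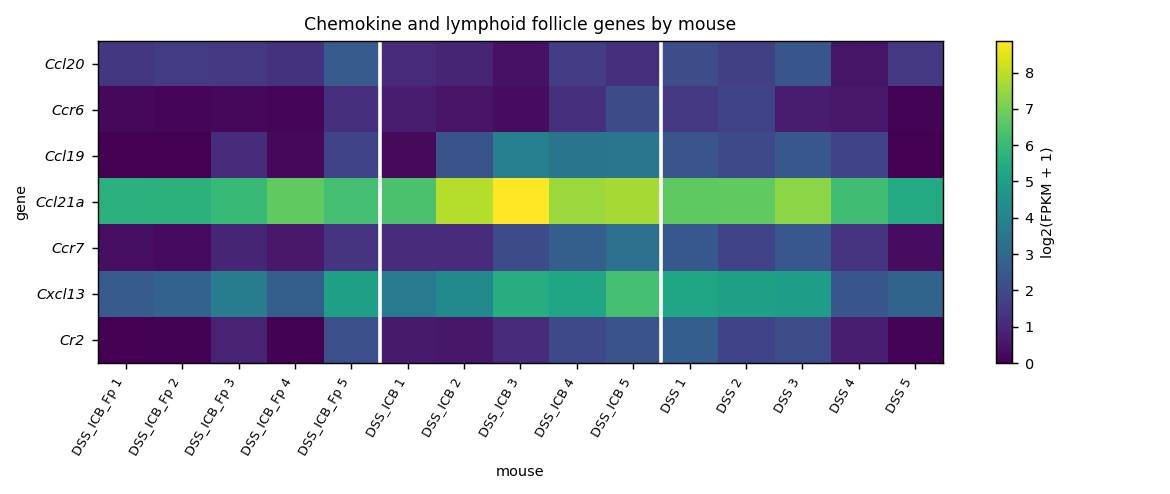
Heat map of log2(FPKM + 1) for Ccl20, its receptor Ccr6, the follicle and lymph node chemokines Ccl19, Ccl21a and Cxcl13, the receptor Ccr7 and the complement receptor Cr2 in each of the 15 mice, grouped as DSS_ICB_Fp, DSS_ICB and DSS. Cr2 is at 3.48 FPKM in DSS_ICB_Fp mouse 5 and at most 0.793 FPKM in the other 4 mice of that group.

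Ccl25 (chr8:4325210-4360020, plus strand; ENSMUSG00000023235) stayed under 1 FPKM in every mouse, between 0.638 and 0.946 FPKM in DSS_ICB_Fp, between 0.473 and 0.698 FPKM in DSS_ICB and between 0.669 and 0.912 FPKM in DSS. Its receptor Ccr9 averaged 0.0788 ± 0.0334, 0.0994 ± 0.0513 and 0.135 ± 0.0563 FPKM in the same groups (SD, n = 5 each). In the fit without the filter, the log2 difference of Ccl25 was 0.09 ± 0.08 (SE) for DSS_ICB_Fp against DSS_ICB, with a 95% interval of -0.08 to 0.26, and -0.10 ± 0.08 for DSS_ICB against DSS, with an interval of -0.27 to 0.07. Without DSS_ICB mice 3 and 5 it was 0.05 ± 0.08 and -0.06 ± 0.08. These are the narrowest intervals of the 10 genes, at levels where the added 1 FPKM shrinks any difference.

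DSS_ICB_Fp and DSS mice were close in most of the 8 tested genes, but the intervals are wide. Each interval uses 1 spread shared by all 3 groups, so the DSS_ICB mice bear on its width as well. The log2 difference was -0.37 for Ccl2 (95% interval -1.22 to 0.48), 0.04 for Ccl7 (-0.88 to 0.96), -0.75 for Ccl8 (-2.04 to 0.54), 0.00 for Ccl5 (-0.87 to 0.87), -0.10 for Ccl11 (-1.06 to 0.86), 0.04 for Ccl20 (-0.66 to 0.74) and 0.29 for Ccl28 (-1.04 to 1.62). Ccl3, Ccl28 and Ccl8 had the widest intervals. The adjusted p was 0.9997 for each in limma.

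Of the 11 other CC ligands, 8 were tested, and 1 passed. Ccl22, a ligand of Ccr4 made by dendritic cells and macrophages, fell in DSS_ICB_Fp against DSS_ICB by 1.19 ± 0.20 on the log2 scale (SE, adjusted p 0.0272 in limma), with all 5 DSS_ICB_Fp mice (0.0687 to 0.646 FPKM) below all 5 DSS_ICB mice (1.46 to 4.41 FPKM). Such a separation was seen in 2.46% of all tested genes. Ccl22 reached 1 FPKM in the 5 DSS_ICB mice, in 2 DSS mice and in no DSS_ICB_Fp mouse, so like Ccl3 it entered the test mainly through the group where it was high. It also passed without DSS_ICB mice 3 and 5 (-0.91 ± 0.15, adjusted p 0.0296), but not without any 1 of DSS_ICB_Fp mice 1, 2, 3 and 5, DSS_ICB mouse 3 and DSS mouse 2 (adjusted p 0.0534 to 0.1198). The same 5 mice were also below all 5 DSS mice (0.951 to 1.32 FPKM), a separation that 0.195% of tested genes showed in that direction, with an adjusted p of 0.9997. The median over the 8 was -0.47 for DSS_ICB_Fp against DSS_ICB and 0.44 for DSS_ICB against DSS, and -0.36 and 0.26 without DSS_ICB mice 3 and 5. The lymphoid ligands of Ccr7 had large differences that did not pass, -1.61 ± 0.41 for Ccl21a (adjusted p 0.0851) and -2.05 ± 0.64 for Ccl19 (adjusted p 0.113) for DSS_ICB_Fp against DSS_ICB, and -1.20 ± 0.41 and -1.38 ± 0.73 without DSS_ICB mice 3 and 5. Both are uncertain, since 71.6% and 52.0% of their 50-base transcript windows occur in gene copies, against 0% in 9 of the 10 genes described here and 0.188% in Ccl28. Ccl9, a myeloid ligand of Ccr1, gave -0.76 ± 0.30 (adjusted p 0.167), and -0.51 ± 0.21 without those 2 mice. Ccl6, a myeloid CC ligand with a higher average than any of the 10 genes, was at 96.3 ± 7.29 FPKM in DSS_ICB_Fp, 100.9 ± 42.9 FPKM in DSS_ICB and 94.5 ± 14.8 FPKM in DSS (SD, n = 5 each). Its log2 difference for DSS_ICB_Fp against DSS_ICB was 0.08 ± 0.29 (SE), and it changed sign, to -0.21 ± 0.16, without those 2 mice. Ccl26 was listed at 0 in every library.

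Of the 14 CC receptors and atypical receptors, 6 were tested and none passed, with a median of -0.81 for DSS_ICB_Fp against DSS_ICB and 0.45 for DSS_ICB against DSS, and of -0.42 and 0.08 without DSS_ICB mice 3 and 5. Ccrl2, a non-signalling receptor that holds the chemoattractant chemerin on the cell surface, was at 0.754 to 1.27 FPKM in DSS_ICB_Fp mice, 1.42 to 12.4 FPKM in DSS_ICB mice and 0.801 to 1.25 FPKM in DSS mice. The DSS_ICB mice thus lay above all others, by a log2 difference of -1.12 ± 0.38 (SE) for DSS_ICB_Fp against DSS_ICB (adjusted p 0.128 in limma), and -0.35 ± 0.13 without DSS_ICB mice 3 and 5. Of all tested genes 2.46% separated DSS_ICB upward from DSS_ICB_Fp, and 1.21% from DSS. Ccr7, the receptor of Ccl19 and Ccl21a, gave -1.36 ± 0.46 (adjusted p 0.128), and -0.96 ± 0.49 without those mice. Ccr8 did not exceed 0.229 FPKM in any mouse.

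Inducers of these chemokines are given beside them as 12 genes, of which 7 were tested. Il1b, the gene of interleukin-1 beta, fell in DSS_ICB_Fp against DSS_ICB by 4.09 ± 0.63 on the log2 scale (SE; adjusted p 0.0229 in limma), and was the 1 gene of this list to pass. It was -2.97 ± 0.46 without DSS_ICB mice 3 and 5 (adjusted p 0.0240), and it no longer passed without any 1 of DSS_ICB_Fp mice 1, 2, 3 and 5 and DSS_ICB mouse 3 (adjusted p 0.0574 to 0.0861). Tnf gave -1.46 ± 0.36 and Il1a -2.55 ± 0.62 (adjusted p 0.0802 each), and -0.82 ± 0.25 and -1.26 ± 0.24 without DSS_ICB mice 3 and 5. In both the 2 groups did not overlap, as in 2.46% of all tested genes in that direction. Il1a reached 1 FPKM in the 5 DSS_ICB mice and in no other, and so it was tested only through the group where it was high. Nfkbia, an inhibitor of NF-kB that NF-kB itself induces, gave -0.52 ± 0.28 (adjusted p 0.286), and -0.0030 ± 0.17 without those 2 mice. Ifng, Il4, Il13, Il17a and Il22 were under the filter. In the fit without the filter, Il22 had the largest differences of these. They were -0.87 ± 0.64 (SE) for DSS_ICB_Fp against DSS_ICB and 0.72 ± 0.64 for DSS_ICB against DSS. Without DSS_ICB mice 3 and 5 they were -0.03 ± 0.07 and -0.13 ± 0.07.

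The genes most alike to each chemokine in log2(FPKM + 1) over the 15 libraries are given as a description, since all points share their libraries and groups. Ccl2 was most like Cxcl1, a neutrophil-attracting CXC chemokine (Pearson r 0.946, and 0.882 without its 2 farthest libraries), followed by Sfrp1 and Batf. Ccl3 was most like Spp1, which encodes osteopontin (0.9801, and 0.871 without 2), followed by the myeloid receptor genes Lilr4b and Lilrb4a. Ccl5 was most like Nkg7, a granule gene of cytotoxic lymphocytes (0.859, and 0.767 without 2), followed by Hspa12a and Tcp11l2. Ccl7 followed Batf, F3 (tissue factor) and Osmr, the oncostatin M receptor, with r of 0.938, 0.926 and 0.923. Ccl8 was most like Slpi (0.901), but that value fell to 0.498 without DSS_ICB mouse 5 and DSS_ICB_Fp mouse 5. Ccl11 followed Grrp1 (0.969), Igfbp7 and the matrix gene Mgp. Ccl20 was most like Atp2b1 (0.849), a calcium pump, followed by the immunoglobulin segments Ighv5-6 and Igkv13-84. Ccl28 was most like Elovl7, a fatty acid elongase (0.991, and 0.910 without DSS_ICB mice 3 and 5), followed by Tmem238l and Gne, an enzyme of sialic acid synthesis.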

How the data were processed

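Colon RNA of 15 mice was measured by RNA-seq, and each deposited file gives 1 FPKM value per Ensembl gene for 1 mouse. Per the labels' protocols, total RNA was taken with Trizol and libraries followed standard Illumina steps. Per the submitters' processing notes, the authors used FastQC, STAR 2.5, the mm10 build, Cuffnorm and DESeq, and further scaling of the FPKM is not given in the sources used here. The files hold no counts, and low values could not be turned back into whole reads, so no count test was used and depth is an estimate. Identifiers were matched to GENCODE M21 symbols (55154 of 55335). Genes with 1 FPKM or more in at least 5 libraries (14385) were fitted on log2(FPKM + 1) with limma 3.58.1 (R 4.3.3; trend and robust, all 15 libraries, 1 mean per group), two-sided, with Benjamini-Hochberg adjustment over all tested genes and a threshold of 0.05. Differences are on this scale, which understates changes of low genes. The fit was tested on simulated data with the same normal spread in every group, which does not cover a group with extreme mice such as DSS_ICB. Groups come from the treatment label, the numbers of mice only name them, and the labels give no batch. Each p-value sets a group difference against the spread between mice of a label, shared by all 3 groups. It thus depends on the group outside the comparison too. Leaving out DSS_ICB mice 3 and 5 lowers that spread for genes in which they are extreme, so a pass without them is no independent result. Spreads could be unequal, as for Ccl3, with an SD of 28.0 FPKM in DSS_ICB, 0.346 FPKM in DSS_ICB_Fp and 0.284 FPKM in DSS.

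The 10 genes and all lists (other CC ligands, CC receptors, inducers, and markers of macrophages, neutrophils, eosinophils, T cells, plasma cells, colonocytes, small intestine, smooth muscle, fibroblasts, endothelium and follicles) were chosen with earlier results of these data known. Named beyond the 10 genes are list genes that pass, the receptors of the 10, the 4 ligands and 4 receptors of smallest p, the first 3 genes of each marker list and of the inducers, and the 3 genes most correlated with each tested chemokine. Ratios to marker genes, Ccl6, Ccl26, Il1a, Ly6g, the inducers under the filter and the follicle genes by mouse were chosen after their values were seen. Alternatives were other scalings, pseudocounts, filters, fits and left-out libraries.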

Additional observations from a re-analysis of the deposited data

Results flagged for a closer look

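The highest and lowest mouse of each group was set against the others for each of the 10 genes, by its gap to the nearest mouse as a share of the group's range on FPKM. Of 30 groups, 6 exceeded Dixon's 95% critical value for 5 mice, where chance gives about 1 in 20 groups. DSS_ICB_Fp mouse 5 stood out in 2 genes: its Ccl8 (2.21 FPKM) was far below its group, at 0.753 of the range, and its Ccl20 (4.81 FPKM) far above, at 0.778. The same mouse had 7.26 FPKM of Cd68 and 3.48 FPKM of Cr2, the lowest and the highest of its group. In DSS_ICB_Fp, Ccl5 of mouse 1 (6.10 FPKM) stood above the rest at 0.719. DSS mouse 5 stood below its group in Ccl5 (1.44 FPKM), at 0.718, and in Ccl11 (3.15 FPKM), at 0.714. In DSS_ICB, Ccl25 of mouse 3 (0.473 FPKM) stood below the rest at 0.833. DSS_ICB mice 3 and 5 together hold the high values of Ccl3 and Ccl4, and such a pair is not picked out by this measure.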

How the results depend on the processing

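Over the 8 tested genes and 3 comparisons, 564 alternative values were computed; 537 kept direction and side of the threshold, 11 passed where the reported value did not, and 16 changed sign, in 6 of 24 results. No member passed under any alternative for DSS_ICB against DSS or DSS_ICB_Fp against DSS. For DSS_ICB_Fp against DSS_ICB, where none passed, 1 passed with a pseudocount of 0.1, 2 with sample quality weights, 1 without DSS_ICB mice 3 and 5, and 0 to 3 with each library left out. Over all genes, the count for DSS_ICB_Fp against DSS_ICB (19) became 42 with a pseudocount of 0.1, 5 with 10, 7 with no filter, 11 with a filter of 5 FPKM, 0 with only the 2 groups in the fit, 964 with quality weights, and 5 to 598 with each library left out. For DSS_ICB against DSS (3) it became 0 with a pseudocount of 0.1, 1 with a pseudocount of 10, upper-quartile scaling, no filter, the 5 FPKM filter or 2 groups, and 0 to 7 with each library left out. The causes were not tested. Signs changed for Ccl5 without DSS_ICB mice 3 and 5 (0.11 for DSS_ICB_Fp against DSS_ICB, -0.11 for DSS_ICB against DSS). In DSS_ICB_Fp against DSS they changed for Ccl5 with upper-quartile scaling (-0.0024), a pseudocount of 0.1 (-0.047) and left-out libraries (-0.29 to 0.12), for Ccl20 with a pseudocount of 10 (-0.0013) and left-out libraries (-0.24 to 0.23), and for Ccl7 (-0.17 to 0.24) and Ccl11 (-0.32 to 0.094) with left-out libraries. The alternatives for Ccl22, Il1b and the neutrophil genes, and the values of lists and of other list genes without DSS_ICB mice 3 and 5, were added after seeing the data. No paired analysis was possible because the labels number no replicates. Depth is known only as an estimate, so no counting interval is given for the low values of Ccl3, Ccl4 and Ccl25.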

Other observations

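Follicle and lymph node chemokines varied widely between mice of a treatment. Ccl19 was at 0, 0, 1.18, 0.145 and 2.41 FPKM in DSS_ICB_Fp mice 1 to 5, at 0.171, 3.98, 13.6, 9.85 and 10.2 FPKM in DSS_ICB mice, and at 4.11, 2.92, 4.28, 2.44 and 0 FPKM in DSS mice. Cxcl13, the B cell attractant of follicles, was at 4.89, 5.94, 12.1, 5.41 and 32.3 FPKM, at 11.95, 17.5, 45.2, 35.9 and 74.2 FPKM, and at 36.6, 32.3, 30.6, 4.23 and 6.28 FPKM in the same mice. DSS_ICB_Fp mouse 5 was high and DSS mouse 5 low in both, as they were in Cr2 (3.48 and 0.0636 FPKM). The 3 groups overlapped in Cxcl13, and no gene of the follicle list passed in limma for DSS_ICB_Fp against DSS_ICB, where the median log2 difference of its 7 genes was -1.61, and -1.01 without DSS_ICB mice 3 and 5.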
